A study of Mus musculus with 10 samples.

Results

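Cirbp, the cold-inducible RNA-binding protein, was crosslinked to RNA at 1941 sites in mouse embryonic fibroblasts, and 421 of these, in 326 genes, lay close to the 3′ end of their gene and overlapped no site of the related protein Rbm3. A site was counted here when it shared no nucleotide on the same strand with an Rbm3 site, when its marked nucleotide lay in loci of exactly 1 gene, and when that nucleotide was under 2000 nt from the 3′ end of the gene's most abundant transcript. The PAR-CLIP tables of both proteins together hold 4059 sites, 2118 of them from Rbm3. The remaining Cirbp sites were 792 Cirbp-only sites inside gene bodies, 59 near 5′ ends, 366 that overlapped an Rbm3 site, 273 outside all listed loci and 30 in loci of several genes. Since overlap and distance chose the sites, both are given below as descriptions and carry no test.

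PAR-CLIP was done on fibroblasts with a stable FLAG-tagged Cirbp or FLAG-tagged Rbm3, which were fed 100 µM 4-thiouridine for 16 h, crosslinked and precipitated with an anti-FLAG antibody, in 1 library per protein listed at 37 °C. The promoter that drives the tagged proteins is not given in the sources used here, and the endogenous proteins were not removed. Polyadenylated RNA was sequenced from fibroblasts without 4-thiouridine or tag in 4 groups of 2 libraries. Mock transfection was done at 37 °C and at 32 °C, and siRNA against Cirbp (siCirbp) or Rbm3 (siRbm3) was given at 37 °C. Whether both libraries of a group come from separate cultures or, for siRNA, from different siRNAs is not labelled, so p-values measure only the spread between these libraries.

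Cirbp and Rbm3 are small proteins with an RNA recognition motif and a glycine-rich tail whose levels are known to go up when mammalian cells are cooled by a few degrees. The 3′ untranslated region of an mRNA carries binding sites for proteins and microRNAs that set its stability, localisation and translation, and many genes end at several alternative polyadenylation sites. In PAR-CLIP, 4-thiouridine built into RNA is crosslinked to the bound protein, and the crosslinked base is then read as a different base, which places a site to within a few nucleotides. The title of the series concerns the influence of both proteins on alternative polyadenylation, and the comparisons below address where Cirbp alone was bound at 3′ ends and how the genes concerned behaved.

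Depth of the RNA-seq libraries ran from 24.8 to 27.8 M fragments. Of 13 fibroblast markers 11 had a mean of at least 1 FPKM (fragments per kilobase of transcript, scaled to mapped fragments), with a summed level of 6166 to 13960 FPKM per library, while Thy1 was listed at 0. Of 21 markers of other cell types 3 reached 1 FPKM, and their sum was 9.86 to 49.95 FPKM. Cirbp itself measured 15.9 and 17.2 FPKM in mock cells at 37 °C, 34.5 and 37.2 at 32 °C, 10.8 and 6.07 with siCirbp, and 13.8 and 23.8 with the label siRbm3. Its log2 fold change was 1.07 ± 0.30 (SE) at 32 °C, with an adjusted p of 0.0313 in limma, and fell by 0.94 ± 0.30 after siCirbp, with an adjusted p of 0.116. Rbm3 measured 1.85 and 2.21 FPKM in mock cells at 37 °C and 3.05 and 1.16 in the libraries labelled siRbm3, so replicate 1 of that label lay above both controls. It measured 3.64 and 3.21 FPKM at 32 °C, a log2 fold change of 0.55 ± 0.30 (adjusted p 0.191), and 5.54 and 7.55 with siCirbp, a log2 fold change of 1.31 ± 0.30 (adjusted p 0.0588).

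Of the host loci 3 were microRNA genes, and 2 of their sites were among the 10 with the highest score, so their mature strands are shown with the seed, bases 2 to 8, in capitals. The sequences are from RefSeq (GRCm38.p6) and are written 5′ to 3′.
miR-184-3p: uGGACGGAgaacugauaagggu
miR-10a-5p: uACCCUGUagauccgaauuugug
miR-100-5p: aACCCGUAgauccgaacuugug
The seeds of miR-10a-5p and miR-100-5p, from related microRNA genes, are not identical, and that of miR-184-3p is unlike either. The Mir184 site (chr9:89697099-89697122, minus strand, mm9) had the highest score, 1000 (the authors' scale of 1 to 1000, with no stated unit), and spanned bases 45 to 68 of the 69 nt hairpin, where the mature strand takes up bases 45 to 66. The Mir10a site (chr11:96178500-96178523, plus strand), with a score of 764, spanned bases 22 to 45 of the 110 nt hairpin, and its mature strand takes up bases 22 to 44. The Mir100 site (chr9:41339520-41339542, plus strand), with a score of 101, spanned bases 13 to 35 of the 80 nt hairpin, and its mature strand takes up bases 13 to 34. In each of the 3 the site thus covered the whole listed 5p or 3p mature strand and none of the other arm, and the marked nucleotide was a U. These genes met the distance rule because their whole locus is shorter than 2000 nt. All 3 were listed at 0 FPKM in all 8 libraries of polyadenylated RNA, a kind of library made from RNA with a poly(A) tail.

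The sites crowded towards the end of the gene. Their median distance from the 3′ end was 674 nt (interquartile range 252 to 1278), and 48 of 421 (11.4%) lay in the last 100 nt. The number per 100 nt was 48 in the last 100 nt, 33.5 between 100 and 299 nt, 25 between 300 and 499 nt, 21.8 between 500 and 999 nt, and 13 and 16 in the next 2 steps of 500 nt. Rbm3-only sites, chosen by the same rule (397 sites), showed no such rise, with 20, 16.5, 14.5, 20.4, 19.6 and 22.6 per 100 nt over the same steps. In the last 500 nt there were 165 Cirbp-only and 82 Rbm3-only sites. Beyond the threshold the Cirbp-only count went on at 58 and 60 per 500 nt up to 2999 nt and 38 in the next step.

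**Figure D1:**
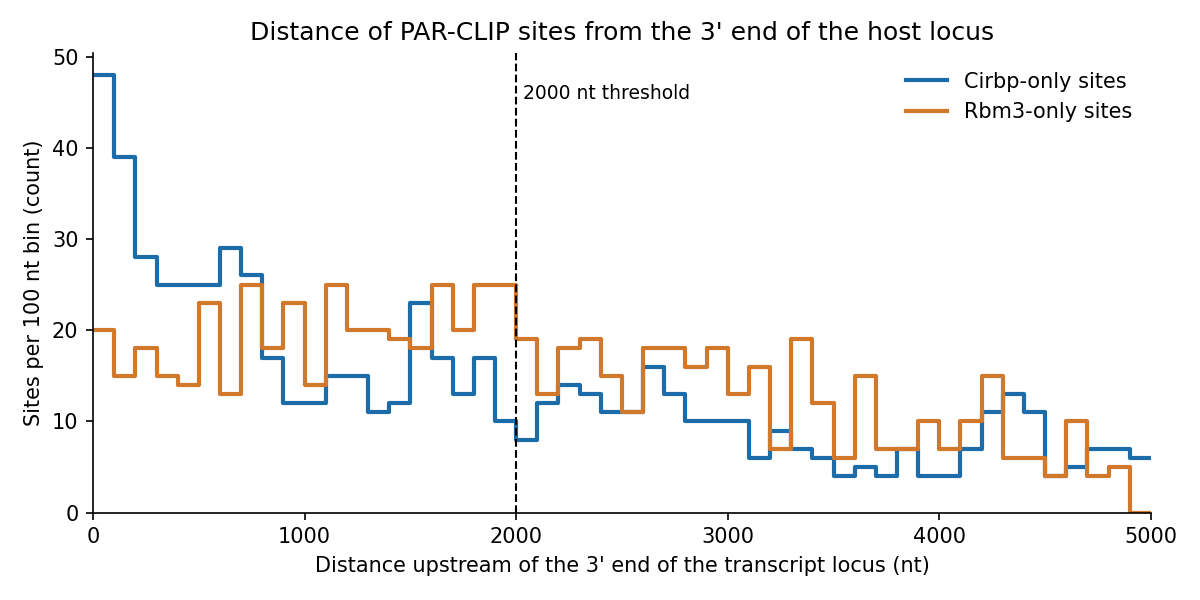
Number of Cirbp-only (blue) and Rbm3-only (orange) sites in loci of 1 gene per 100 nt bin, against the distance in nt of the marked nucleotide upstream of the 3′ end of the gene's most abundant transcript; the dashed line is the 2000 nt threshold. The Cirbp-only count is highest in the first bin, at 48 sites, where the Rbm3-only count is 20.

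Of the 1272 Cirbp-only sites in loci of 1 gene, 421 (33.1%) were near the 3′ end and 74 (5.82%) within 2000 nt of the 5′ end. Of 1386 Rbm3-only sites, 397 (28.6%) were near the 3′ end and 355 (25.6%) near the 5′ end. At the 5′ end the shares of the proteins thus lay further apart than at the 3′ end. With 1 library per protein, a difference between proteins cannot be told apart from one between libraries. Of the 421 sites 15 were also within 2000 nt of the 5′ end, and 6 lay in loci shorter than 2000 nt. Just inside the threshold were sites in Epha7 at 1989 nt (score 301), Ctdspl2 at 1976 nt (318) and Mbnl2 at 1964 nt (301), and just outside were sites in Mastl at 2005 nt (260), Ankrd17 at 2016 nt (441) and Zfp238 at 2017 nt (410).

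The median score of the 421 sites was 334 (interquartile range 260 to 410), against 301 for Cirbp-only sites in gene bodies, 334 for sites overlapping Rbm3, 282 near 5′ ends and 260 for sites outside listed loci. At the lowest score of 1 were 22 of the 421 sites (5.23%), against 8.84% in gene bodies, 15.3% near 5′ ends and 19.0% outside listed loci. The median width was 29 nt, with a range of 18 to 94, against medians of 26 to 32 nt in the other classes of Cirbp sites. The rank correlation of distance with score was -0.06 over the 421 sites, which share 1 library. All 331 sites in genes whose strand is in the reference table lay on the sense strand, and for the other 90 the strand of the gene was not known.

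Most of the sites were far from any Rbm3 site, though slightly less often than Cirbp-only sites in gene bodies. The nearest Rbm3 site on the same strand was within 50 nt for 14 sites, within 500 nt for 58 and more than 10000 nt for 280 (66.5%, beside 73.9% of Cirbp-only gene-body sites). At the level of genes, 201 of 326 hosts (61.7%) held no Rbm3 site, beside 362 of 490 hosts (73.9%) of gene-body sites alone, 44 also held a site bound by both proteins and 44 an Rbm3-only site near the 3′ end. The closest case was Rbm26, an RNA-binding protein, where the Cirbp site (chr14:105514415-105514436, score 382) was directly next to an Rbm3 site. In Ranbp2, a nuclear pore component, a Cirbp site (chr10:57956601-57956636, score 371) lay 5 nt from one.

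Several genes carried a row of sites. There were 267 hosts with 1 site, 43 with 2 and 16 with 3 or more, and the gaps between the 95 pairs of neighbouring sites had a median of 190 nt, 34 of them under 100 nt. Cnbp, a zinc-finger protein that binds single-stranded nucleic acids, had the most, with 8 sites between 498 and 1379 nt from the end, the highest (chr6:87793177-87793212, minus strand) with a score of 621. Stag2, a subunit of the cohesin complex that holds sister chromatids together, had 7 sites between 230 and 1692 nt, with scores of 233 to 752, the highest at chrX:39628642-39628666 on the plus strand. Kpna4, an importin alpha that carries proteins into the nucleus, had 5 sites between 187 and 1785 nt, with scores of 233 to 530. Neither Cnbp, Stag2, Kpna4 nor the splicing repressor Ptbp2, with 4 sites between 688 and 1464 nt, held any Rbm3 site. The same held for the chromatin factor Adnp, with 3 sites, and the spliceosomal helicase Dhx15, whose 3 sites all lay within 151 nt of the end.

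Other genes of this kind held sites of both proteins in the same window. Rap1b, a small GTPase, had 5 Cirbp-only sites between 252 and 595 nt from the end, followed upstream by 2 sites bound by both proteins at 825 and 962 nt. Bub3, a spindle checkpoint protein, had 4 Cirbp-only sites between 1378 and 1584 nt and a shared site at 1741 nt with a score of 859 for Cirbp and 454 for Rbm3. Ddx3x, an RNA helicase, had 4 Cirbp-only sites at 711, 872, 1871 and 1891 nt, an Rbm3-only site at 592 nt and a shared site at 1622 nt. Srsf2, an SR splicing factor, had Cirbp-only sites at 343, 399, 464 and 1735 nt and Rbm3-only sites at 545 and 740 nt. Sp3, a transcription factor, had 5 Cirbp-only sites between 525 and 1629 nt, and its Rbm3 sites included 6 in the gene body more than 10000 nt from the end.

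**Figure D2:**
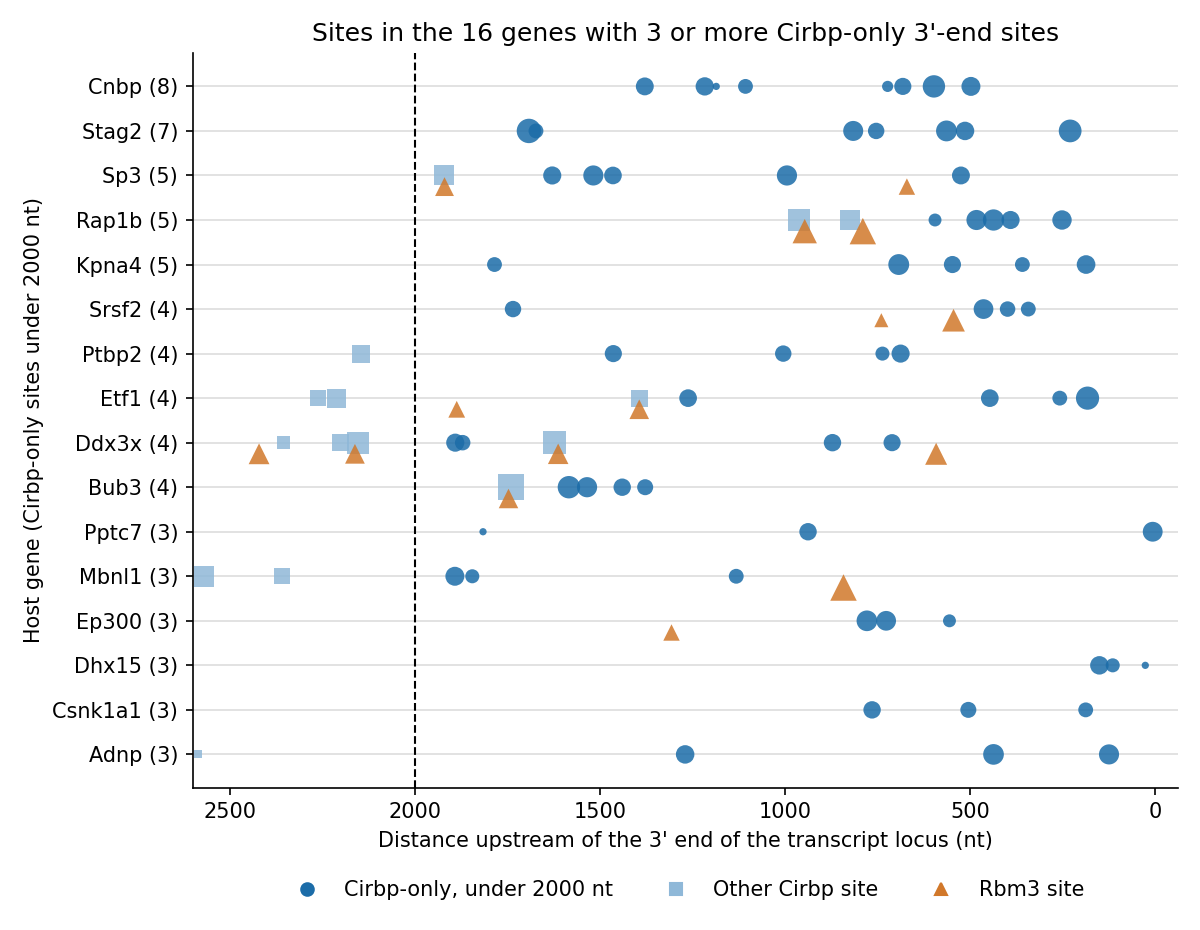
Positions of sites in the 16 genes with 3 or more Cirbp-only sites near the 3′ end, as distance in nt upstream of the 3′ end, up to 2600 nt. Blue circles are Cirbp-only sites under 2000 nt, pale squares other Cirbp sites and orange triangles Rbm3 sites, with larger symbols for higher scores; Cnbp, with 8 circles, and Stag2, with 7, have no triangle.

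After Mir184 the highest scores were in 1110004F10Rik (793, chr7:123248028-123248058) and Rcn2 (772, chr9:55906576-55906616), a calcium-binding protein of the endoplasmic reticulum. Next to Mir10a followed Wasf2 (756, chr4:132753989-132754016), a regulator of actin branching, Stag2 (752), Mapk14 (736, chr17:28884690-28884718), which encodes the stress kinase p38 alpha, the transcriptional repressor Zfp238 (695), the translation termination factor Etf1 (671) and the RNA-binding protein Mex3b (658). These top sites lay at distances of 3 to 1692 nt. The score bore almost no relation to the level of the host mRNA, with a rank correlation of 0.06 over 306 hosts.

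RNA-processing genes were among the hosts of both proteins. Of 72 listed splicing factors and hnRNPs 15 (20.8%) held a site, 25 sites in all, against 2.81% of all genes with a mean of at least 1 FPKM. The list has a median of 41.3 FPKM, and among the most abundant 1 of 5 bins of genes, above 34.9 FPKM, 5.23% were hosts. The list is not particular to these sites, since 9 of the 72 genes (12.5%) held an Rbm3-only site near the 3′ end, 36 a Cirbp site of any class and 35 an Rbm3 site of any class. The 15 were the SR proteins Srsf2, Srsf6, Srsf10 and Srsf11, the hnRNPs Hnrnpa0, Hnrnpf and Hnrnpu, Ptbp2, Sfpq, Son, Ddx5, Mbnl1, Mbnl2, Qk and Ybx1. Hnrnpa0 had the highest single score of them, 634, at a site 26 nt from the end (chr13:58227253-58227283). Hnrnpu had sites at 38 and 809 nt, Son at 38 and 831 nt, and Hnrnpf at 8 nt. Of 31 genes for pre-mRNA 3′ end processing and deadenylation 6 (19.4%) held 1 site each, and 5 (16.1%) held an Rbm3-only site near the 3′ end. The 6 were Cstf3, a cleavage stimulation factor subunit (189 nt from the end, score 347), the poly(A) polymerase Papola (154 nt, 233), the deadenylation factors Cnot6 (65 nt, 382) and Pan3 (939 nt, 382), and the antiproliferative proteins Tob1 (55 nt, 301) and Tob2 (482 nt, 201). Of these 6, Cstf3, Papola and Tob2 held no Rbm3 site. These lists were drawn up with results of these data known, so the shares are descriptions.

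Other lists were small and held few or no hosts. None of 13 fibroblast markers, 39 collagens and matrix genes, 43 mitotic and replication genes or 23 clock genes was a host, where the share of 2.81% would give 0.365, 1.09, 1.21 and 0.646 genes, so these counts lie near the background. The 39 collagen and matrix genes had a median of 70.4 FPKM and held no site of any class from either protein, and the fibroblast markers held 1 site from each protein. Of 80 cytosolic ribosomal protein genes 1 was a host (Rpl17), of 35 translation factors 1 (Eif4h), of 43 actin genes 2 (Wasf2 and Arpc2), of 26 glycolysis and hypoxia genes 2 (Vegfa and Hif1a) and of 26 chaperone genes 1 (Hspa1b).

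**Figure D3:**
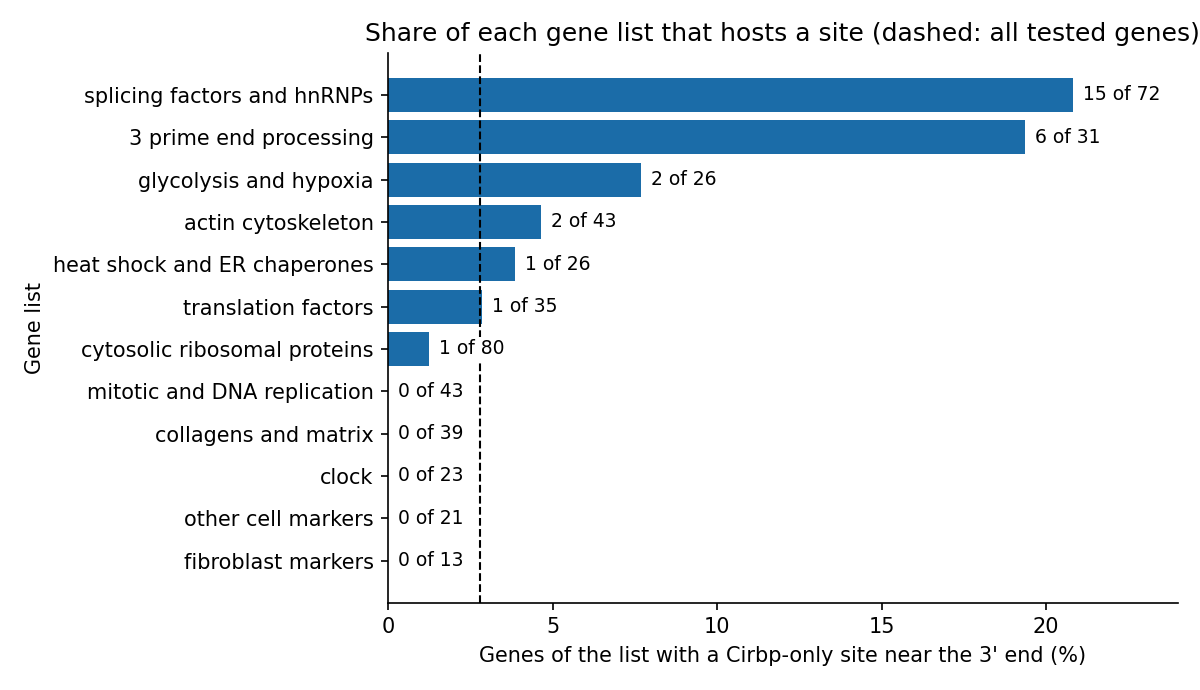
Share in percent of the genes of each list that held at least 1 Cirbp-only site near the 3′ end, with the count beside each bar; the dashed line is the share among all genes with a mean of at least 1 FPKM, 2.81%. Splicing factors and hnRNPs (15 of 72) and 3′ end processing genes (6 of 31) lie above 19%, and 5 lists are at 0; Rbm3-only sites near 3′ ends, not drawn, were in 9 and 5 genes of those 2 lists.

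Further hosts were picked out after the sites were known, so their number supports nothing. Besides Stag2, the cohesin genes Smc1a and Wapal held 1 site each. Besides Kpna4, the importins Kpna3 and Kpnb1 and the nuclear pore genes Ranbp2 and Nup153 were hosts. Regulators of mRNA decay and translation among the hosts included Zfp36l2, a zinc-finger protein that promotes decay of AU-rich mRNAs (sites of score 638 and 301), the Argonaute partner Tnrc6b, Cpeb2, Fmr1 and the family members Mex3b, Mex3c and Mex3d.

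Hosts were more abundant and somewhat longer than other genes. Of 326 hosts 306, with 400 sites, had a mean of at least 1 FPKM and entered the tests. Their median level was 27.1 FPKM, against 13.4 for all 10901 genes tested, and their median transcript length 3678 nt, against 2766 nt. In 5 equal bins of genes by level the share of hosts was 0.734%, 1.38%, 2.39%, 4.31% and 5.23%. Among the 100 most abundant genes, all above 366 FPKM, only the ATP synthase gene Atp5g3 was a host, while 11 of the 100 held a Cirbp site of any class. Among the 500 most abundant 18 (3.60%) were hosts. Depth of the PAR-CLIP libraries is unknown, so the level below which a site would be missed cannot be given.

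Sites were also recorded in genes listed with low or 0 FPKM. The 7 hosts with an estimate marked as failed in any library all had a mean of at least 1 FPKM, so no host below that carries this mark. The fibroblast marker Thy1 was listed at 0 too, so a listed 0 is not read here as absence of RNA. In all, 20 hosts, with 21 sites, were under 1 FPKM, 17 of them under 0.1, and 9 were listed at 0 in all 8 libraries. Besides the 3 microRNA genes these 9 were AI504432 and the protein-coding genes Bcl11a, Nppc, Pou3f3, Tox3 and Zfp711. Nppc, the precursor of C-type natriuretic peptide, had a site with a score of 426 at 288 nt from the end, Bcl11a, a haematopoietic transcription factor, one of 382 at 352 nt, and Zfp711 a pair with scores of 434 and 260. These loci were not otherwise empty, since Zfp711 held 5 further Cirbp sites and 6 Rbm3 sites, and Bcl11a held 1 and 6. Zic5, a neural transcription factor, measured 0.294 to 0.695 FPKM and had a site with a score of 448 (chr14:122858382-122858408) 22 nt from the end and 27 nt from an Rbm3 site. Of all hosts 319 were protein-coding in the reference table, 3 were microRNA genes, 2 were other noncoding genes and 2 had no match. Vaultrc5, a vault RNA gene and 1 of the noncoding hosts, had a site of score 201 and measured 0.517 to 11.8 FPKM, with both libraries of each group far apart. The share of hosts under 1 FPKM was 6.13%, against 7.29% for Cirbp-only gene-body sites and 13.0% for Rbm3-only sites near 3′ ends. A site whose score is 1 or whose host is near 0 was kept, and whether such sites reflect binding was not tested.

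At 32 °C hosts changed about as often as other genes. In limma, fitted on log2(FPKM + 1) of all genes, 91 of 306 hosts (29.7%) had an adjusted p under 0.05 against mock cells at 37 °C, beside 32.8% of all genes tested. Of the 91, 30 were higher (9.80%, beside 13.0% of all genes) and 61 lower (19.9%, beside 19.8%). This split depended on scaling, in hosts as in all genes. After centring each library on its median, 49 hosts were higher (16.0%, beside 19.4% of all genes) and 45 lower (14.7%, beside 15.8%). After removing the trend with transcript length, 44 were higher (14.4%, beside 15.3%) and 41 lower (13.4%, beside 15.5%). Without either step, 133 hosts (43.5%, beside 45.6%) had an unadjusted p under 0.05. The median log2 fold change of hosts was 0.01, beside -0.02 for all genes, and median centring raised both, to 0.13 and 0.11. With the length trend removed it was 0.16 in hosts and 0.04 in all genes, and 0.28 in hosts of Cirbp-only gene-body sites.

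Cnbp, the gene with most sites, was among the clearest rises in the cold. It measured 158 and 156 FPKM at 37 °C and 296.7 and 360.6 at 32 °C. The groups did not overlap, as was required of the largest rises named. The log2 fold change was 1.05 ± 0.16 (SE), with an adjusted p of 0.00484 in limma. Sdc2, a cell-surface heparan sulphate proteoglycan, measured 66.2 and 63.7 FPKM at 37 °C and 150.6 and 158.2 at 32 °C, a log2 fold change of 1.24 ± 0.13, the largest rise among called hosts (adjusted p 0.00237). Slc35b3, a nucleotide-sugar transporter, rose by 1.06 on the log2 scale, the ubiquitin-conjugating enzyme Ube2w by 1.03 and the respiratory complex I subunit Ndufb6 by 1.00. Of the other genes with several or high-scoring sites, 1110004F10Rik rose by 0.90, Etf1 by 0.66 and Bub3 by 0.56.

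The largest fall was in Egr1, an immediate early transcription factor, with 211.0 and 229.9 FPKM at 37 °C and 40.4 and 37.3 at 32 °C, a log2 fold change of -2.47 ± 0.23 (adjusted p 0.00191). Mex3d, an RNA-binding ubiquitin ligase, went from 17.0 and 21.1 FPKM to 5.12 and 5.66, a log2 fold change of -1.64. Fzd7, a Wnt receptor, Dlc1, a GTPase-activating protein, and Prrc2a fell by 1.56, 1.55 and 1.50 on the log2 scale. Both libraries of each of these 5 genes at 32 °C lay below both at 37 °C, as was required for naming them. Wasf2 (-1.12), the acetyltransferase Ep300 (-0.95), Adnp (-0.65) and Mapk14 (-0.52), hosts with several or high-scoring sites, also fell. Of the 15 splicing-factor hosts only Ybx1 passed the test, lower by 0.47 on the log2 scale, and of the 6 hosts among 3′ end processing genes only Tob2, with a log2 fold change of -1.11 (adjusted p 0.0110).

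The count at 32 °C rested on every mock library. Dropping mock 37 °C replicate 1 left 22 hosts (7.19%, beside 6.01% of all genes) and dropping its replicate 2 left 10 (3.27%, beside 3.65%). Dropping mock 32 °C replicate 1 left 29 (9.48%, beside 7.58%) and dropping its replicate 2 left 9 (2.94%, beside 3.62%). It rose to 152 (49.7%, beside 46.4% and 46.5%) when either siRbm3 library was dropped, and to 212 (69.3%, beside 69.3%) when only the 2 groups compared were fitted, so the count moved with that of all genes.

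After siCirbp few hosts changed. Of 306 hosts 7 (2.29%) had an adjusted p under 0.05 against mock cells at 37 °C, beside 3.39% of all genes, and 62 (20.3%) had an unadjusted p under 0.05, beside 24.2%. Of the 62, 43 were higher (14.1%, beside 17.6%) and 19 lower (6.21%, beside 6.61%). For comparison, 9 of 451 hosts (2.00%) of Cirbp-only gene-body sites and 4 of 234 hosts (1.71%) of Rbm3-only 3′ end sites were called. Genes that also hosted a Cirbp-only 3′ end site were left out of both comparison sets, here and below. The median log2 fold change was 0.08 in hosts and 0.08 in all genes. The hosts were thus near or below the background in this fit.

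Of the 7 called hosts 6 were higher, beside 2.77% of all genes, and 1 was lower, beside 0.624%. Id3, an inhibitor of helix-loop-helix transcription factors, measured 57.7 and 73.1 FPKM in mock cells at 37 °C and 143.0 and 157.6 after siCirbp, a log2 fold change of 1.20 ± 0.18 (adjusted p 0.0266). Its relative Id2 went from 5.21 and 6.54 FPKM to 16.5 and 27.5, a log2 fold change of 1.71 ± 0.35 with an adjusted p of 0.0487, close to the threshold. The siCirbp libraries of both genes lay above both controls, as was required for naming them, and those of Id2 stood well apart from each other. Each has 1 site, that of Id3 (chr4:135701248-135701269, score 334) 54 nt and that of Id2 (chr12:25779169-25779195, score 201) 514 nt from the end.

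Ybx1, a Y-box RNA-binding protein, went from 26.6 and 27.2 FPKM to 43.9 and 49.8, a log2 fold change of 0.78 ± 0.14 (adjusted p 0.0367), and has a site with a score of 301 at 1619 nt (chr4:118951539-118951566). Rfc3, a subunit of the clamp loader of DNA replication, went from 30.1 and 29.6 to 55.7 and 62.3 FPKM, a log2 fold change of 0.96 ± 0.16. Aarsd1, an alanyl-tRNA editing protein, went from 14.5 and 16.5 to 29.5 and 31.3 FPKM, a log2 fold change of 0.93 ± 0.15. Slc30a1, a zinc exporter, was close to the filter at 0.996 and 0.918 FPKM and reached 2.22 and 2.61, a log2 fold change of 0.80 ± 0.17 with an adjusted p of 0.0499. In each of these 4 both siCirbp libraries lay above both controls, which was required for naming all but Slc30a1. In the libraries labelled siRbm3, Id3 measured 86.4 and 79.6 FPKM, Id2 14.7 and 7.15, and Ybx1 32.6 and 34.7. Rfc3 measured 36.7 and 42.6 there, and Aarsd1 16.52 and 20.49. All of these also lay above both mock 37 °C libraries, though no host passed the adjusted threshold for that label. For Aarsd1 the margin was small, 16.52 FPKM against 16.49 in the higher mock library. The share of all genes above both mock libraries was not counted, so this is a description only. Egr1, the 1 called host that fell, went from 211.0 and 229.9 to 58.6 and 66.1 FPKM, a log2 fold change of -1.81 ± 0.23 (adjusted p 0.0223), and in the libraries labelled siRbm3 it measured 80.5 and 48.7 FPKM. These comparisons share the mock 37 °C libraries. Reads that match copies of a gene elsewhere, as for Ybx1, were counted in a way not given in the sources used here.

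**Figure D4:**
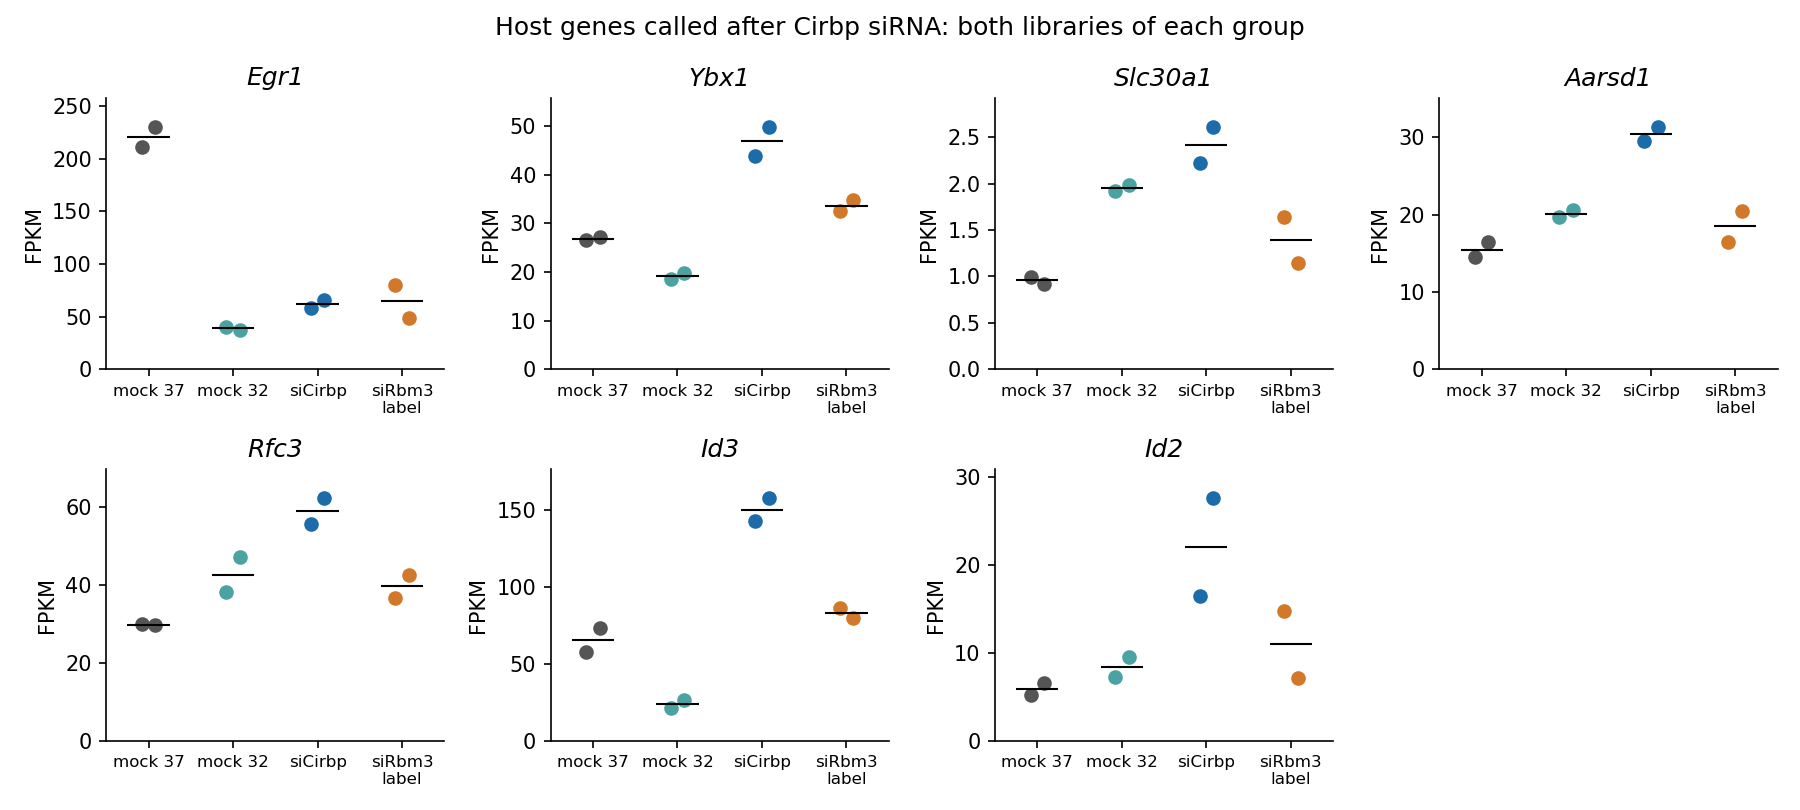
FPKM in each of the 2 libraries (points) of mock 37 °C, mock 32 °C, siCirbp and the label siRbm3, with the mean of the pair as a line, for the 7 host genes called after siCirbp; each axis starts at 0. In 6 genes both siCirbp libraries lie above both mock 37 °C libraries, and in Egr1 both lie below.

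None of the genes with 3 or more sites was among the 7. Cnbp measured 202.5 and 194.6 FPKM after siCirbp, a log2 fold change of 0.34 ± 0.16 (adjusted p 0.242). Stag2 measured 31.9 and 37.3 against 40.6 and 40.8, a log2 fold change of -0.23 ± 0.31, and Kpna4 42.1 and 52.1 against 36.8 and 35.7, a log2 fold change of 0.36 ± 0.23. The nearest to the threshold were Bub3 (0.69 ± 0.16, adjusted p 0.0642) and Srsf2 (0.89 ± 0.21, adjusted p 0.0649). Of the 15 splicing-factor hosts only Ybx1 was called, and of the 6 hosts among 3′ end processing genes none, where the unadjusted p was 0.0112 for Cstf3 and 0.0230 for Tob1 and above 0.05 for the other 4.

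The count of 7 was not stable. It was 0 without either mock 37 °C library, either mock 32 °C library or siCirbp replicate 2, 11 (3.59%, beside 6.21% of all genes) without siCirbp replicate 1 and 47 (15.4%, beside 14.8%) without either siRbm3 library. Of these 47, 39 were higher (12.7%, beside 10.5%). The count was 1 (0.327%, beside 1.03% of all genes) after removing the trend with transcript length, where Egr1 remained. It was 0 with the replicate number as a block, beside 0.0275% of all genes. Few of all genes were called in the settings where no host was.

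In the libraries labelled siRbm3 no host passed the adjusted threshold in limma, as was true of 0% of all genes. At an unadjusted p under 0.05 there were 34 hosts (11.1%, beside 13.3% of all genes), of which 12 were higher (3.92%, beside 9.21%) and 22 lower (7.19%, beside 4.10%). The median log2 fold change was -0.06 in hosts and 0.12 in all genes. The median absolute difference between the 2 libraries of this label was 0.37 in hosts and 0.31 in all genes. Between the mock 37 °C libraries it was 0.06 and 0.09, and between the siCirbp libraries 0.22 and 0.26.

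The hosts were lower in 1 library, as were those of Cirbp-only gene-body sites. In siRbm3 replicate 2, 41 of 306 hosts (13.4%) were at least 1 log2 unit below the mock 37 °C mean, against 5.33% of all genes, while in replicate 1 this held for 3 hosts (0.980%) and in the siCirbp libraries for 3 and 2. In siRbm3 replicate 2 the same held for 78 of 451 hosts (17.3%) of gene-body sites and 8 of 234 (3.42%) of Rbm3-only 3′ end sites. Ddx3x measured 59.8 and 62.3 FPKM in mock cells and 70.4 and 17.5 in the libraries labelled siRbm3. Stag2 measured 29.3 and 13.4, Sp3 39.3 and 15.1, Mbnl1 55.4 and 27.4 and Ptbp2 24.98 and 13.1 FPKM in those libraries, each lowest in replicate 2. Of the 16 genes with 3 or more sites, 4 were at least 1 log2 unit below the mock 37 °C mean in siRbm3 replicate 2. In that library 11 of the 16 lay below both mock 37 °C libraries and 3 above both. These 3 were Csnk1a1 at 167.7, Bub3 at 57.6 and Cnbp at 191.4 FPKM. The share of all genes outside both mock libraries was not counted, so the counts of 11 and 3 are descriptions only. Without replicate 1, 64 hosts (20.9%) were called, all lower, beside 7.50% of all genes lower, and without replicate 2 only 1 host was. The reason was not tested.

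Between siCirbp and the libraries labelled siRbm3 no host passed the adjusted threshold in limma, beside 0.0367% of all genes. At an unadjusted p under 0.05 there were 62 hosts (20.3%, beside 15.2% of all genes), 52 of them higher after siCirbp (17.0%, beside 9.19%) and 10 lower (3.27%, beside 5.98%). The hosts of Cirbp-only gene-body sites gave 19.1% higher and those of Rbm3-only 3′ end sites 5.13%. The median log2 fold change was 0.14 in hosts and 0.00 in all genes. Without siRbm3 replicate 1 the number called was 100 (32.7%, beside 19.6% of all genes), 91 of them higher (29.7%, beside 12.3%), and without replicate 2 it was 1 (0.327%, beside 0.0826%).

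**Figure D5:**
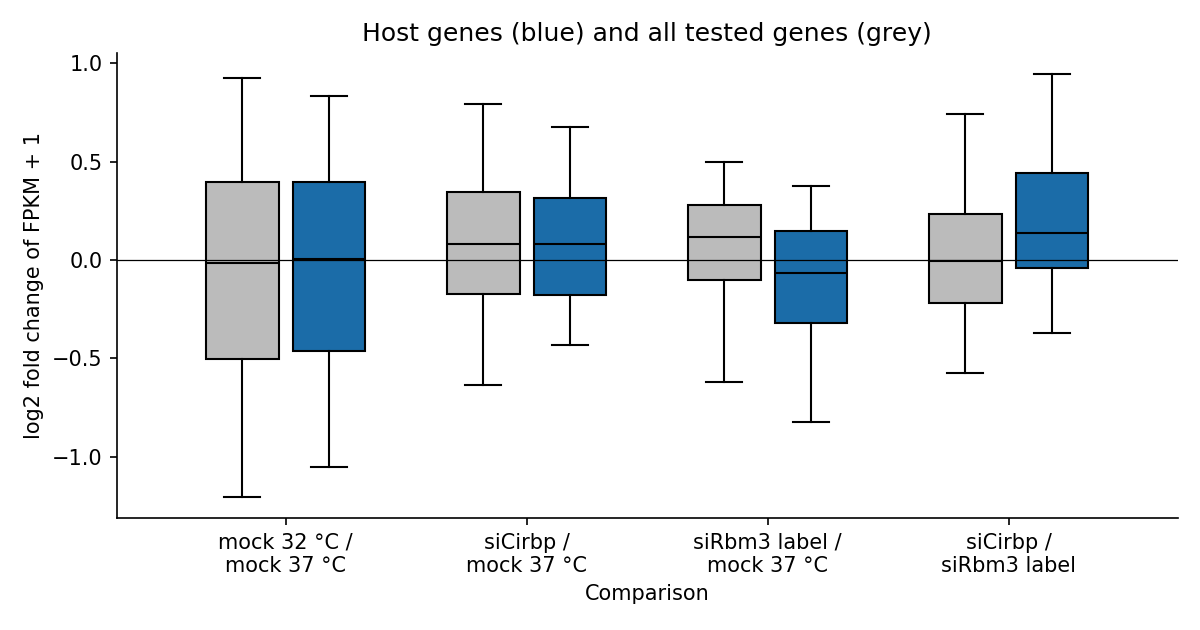
Log2 fold change of FPKM + 1 in host genes (blue, 306 genes) and in all tested genes (grey, 10901) in 4 comparisons; boxes are quartiles with the median, whiskers the 5th and 95th percentile. Medians of hosts and all genes lie at 0.01 and -0.02 at 32 °C, 0.08 and 0.08 after siCirbp, -0.06 and 0.12 for the label siRbm3, and 0.14 and 0.00 between both siRNAs.

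The use of alternative 3′ ends could be examined in few hosts. Some genes have transcripts listed with 3′ ends at least 50 nt apart, and for 222 of these, with a mean of at least 5 FPKM and a distal share between 10% and 90%, the share of the most distal end was tested. Among the 222 were 16 hosts. None of the 16 passed the adjusted threshold in limma at 32 °C, after siCirbp or in the libraries labelled siRbm3, beside 13.1%, 5.86% and 1.80% of the genes tested, and 1 host (6.25%) in each comparison had an unadjusted p under 0.05, beside 31.5%, 19.4% and 6.76%.

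Atp2a2, the calcium pump of the endoplasmic reticulum, had the smallest p at 32 °C. Its strand, and so which end counts as distal, was taken from its PAR-CLIP sites. Its distal end made up 11.0% and 11.4% of its FPKM at 37 °C and 19.7% and 19.5% at 32 °C, with an adjusted p of 0.0738. In Son, a splicing cofactor, the distal share was 74.8% and 71.7% in mock cells and 82.1% and 79.4% after siCirbp, with an unadjusted p of 0.0178 and an adjusted p of 0.165. Bnip2 had 74.9% and 78.3% in mock cells and 70.7% and 69.2% in the libraries labelled siRbm3, with an unadjusted p of 0.0380 and an adjusted p of 0.661. With 16 genes and 2 libraries per group, these data set no close limit on changes in 3′ end use. Of 30 sites in 24 hosts with several listed 3′ ends, 23 lay in the stretch beyond the next-to-last end and 7 did not. Sites were chosen within 2000 nt of the end of the most abundant transcript, and most of these ends are further apart than that. The split thus largely follows which end that transcript has and shows no preference of Cirbp.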

How the data were processed

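PAR-CLIP sites and RNA-seq values were used as deposited. Sites have mm9 coordinates per the file headers, and each carries a score from 1 to 1000, as deposited by the authors, of no stated scale. The submitters' processing notes name TopHat 1.1.2 and mm9. The FPKM were deposited by the authors, 1 value per RefSeq transcript. The coverage signal deposited by the authors gave, divided by FPKM, the depth of each library. The transcript length in nt and other columns are as deposited per the file headers. The site caller, Cufflinks version and annotation release are not given in the sources used here.

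Members, gene lists and tests were chosen with earlier results of these data known. Equal transcripts of a gene at 0 were resolved by length. FPKM were summed per gene. Limma 3.58.1 in R 4.3.3 (trend and robust) was fitted on log2(FPKM + 1) of genes with a mean of at least 1 FPKM, as 4 groups (residual degrees of freedom 4) with two-sided tests and Benjamini-Hochberg adjustment over all genes at 0.05. A log2 change of FPKM + 1 understates changes of low genes. The fit was tested on simulated data. Named genes were Cirbp and Rbm3, hosts of the 10 highest scores, hosts with 3 or more sites, the 5 largest called rises and falls per comparison (libraries not overlapping, higher mean 5 FPKM or more), up to 3 hosts per list and 3 sites on each side of the 2000 nt threshold; others were chosen after their values were seen. Gene strand is from RefSeq (17505 of 22552 genes), and the distance of a site was taken by the strand of the site. For 3′ end use, a gene with no RefSeq strand took that of its PAR-CLIP sites, among hosts Atp2a2, Crem and Ptk2. Site sequences and the exon or UTR of a site were not analysed here.

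Alternatives covered pseudocount, filters, scaling, length trend, replicate block, groups fitted, left-out libraries and the rule for sites.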

Additional observations from a re-analysis of the deposited data

How the results depend on the processing

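The number of sites was 275 under 1000 nt, 166 under 500 nt, 265 at or above the median score of all Cirbp sites, and between 331 and 439 under the other rules, of which sense sites only (331) was chosen after seeing the data. Leaving out 1 library gave 9 to 152 hosts at 32 °C, 0 to 47 after siCirbp, 0 to 64 in the libraries labelled siRbm3 and 0 to 100 between both siRNAs. The share of all genes called also moved when 1 library was left out. Fitting only the 2 groups compared gave 212 hosts (69.3%, beside 69.3% of all genes) at 32 °C and 0 after siCirbp (beside 0.119%). After siCirbp the count was also 0 with no filter on low values (beside 0.335%) and 1 with the length trend removed (beside 1.03%). It was 3 under 500 nt, a rule with 151 hosts, and 3 at the stricter score, with 216 hosts, beside 3.39% of all genes. These counts thus come from smaller sets of hosts. With a replicate block, 76 hosts (24.8%, beside 29.2%) were called at 32 °C and 0 after siCirbp (beside 0.0275%). Residuals of libraries with the same number correlated from -0.15 to 0.09. With 2 libraries per group, these values cannot settle whether libraries were paired by number, so whether the block is warranted stays unknown. For distal 3′ end use at 32 °C the count of hosts was 2 with a distal share of 5% to 95% (Atp2a2 and Ensa). The share of all genes called in that setting is not given here, so this count is a description only. The log2 fold change of Cirbp with the label siRbm3 was 0.13 over all libraries, -0.24 without replicate 2 of that label and 0.50 without replicate 1. The log2 fold change of Rbm3 at 32 °C, 0.55 over all transcripts, was -0.67 for its highest transcript only. In the libraries labelled siRbm3 it was -0.03 over all, 0.11 for that transcript, 0.05 without mock 37 °C replicate 2 and 0.42 without siRbm3 replicate 2, against -0.48 without replicate 1. The cause was not tested for these. Leaving out a mock library ended the call of many named genes at 32 °C and of every called named host after siCirbp, with no change of direction. Depth of the PAR-CLIP libraries is unknown, and with 1 library per protein no site has a replicate.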
